A study of Mus musculus with 55 samples.

Results

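GABAergic interneurons are the inhibitory neurons of the hippocampus, and 9 genes that mark them (Gad1, Gad2, Slc32a1, Pvalb, Calb2, Reln, Lhx6, Nos1 and Lamp5) were followed through dorsal hippocampal RNA-seq of 55 mice. The members were chosen by gene symbol, with earlier results of these data known. They are 9 of the 55487 genes in the count table and 9 of the 16168 genes tested. All 9 passed the filter on low values and all were above it in every library. The study compared wild-type (WT) mice with Cnih3 knock-out (KO) mice in males and in females at metestrus, diestrus, proestrus and estrus, with 1 hippocampus and 1 library per mouse. In WT there were 4 metestrus, 6 diestrus, 5 proestrus and 7 estrus females and 5 males. In KO there were 5 metestrus, 6 diestrus, 4 proestrus and 6 estrus females and 7 males. All mice were adults of 10.86 to 23.71 weeks on a C57/BL6j background, and females were staged by vaginal cytology. The KO line lacks a coding exon of Cnih3, which encodes an AMPA receptor trafficking protein, in every cell. The WT mice were a mix of mutation-negative offspring of a Cnih3 heterozygous parent and offspring of plain B6 pairs. Over its remaining exons Cnih3 kept reads in the KO libraries, at 21.6 to 47.8 normalized counts per 1000000 reads (CPM) against 21.6 to 62.5 CPM in WT, so the gene total does not check the genotype labels. Genes of dentate granule cells and of CA1 and CA3 pyramidal cells, which mark the labelled tissue, were present in every library. The libraries held 25881295 to 63547098 counts each (median 53384170).

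GABA is made from glutamate by the glutamic acid decarboxylases of Gad1 and Gad2 and loaded into synaptic vesicles by the transporter of Slc32a1, and nearly every interneuron uses all 3. The other genes mark subtypes. Lhx6, a LIM homeodomain transcription factor, and Pvalb, the calcium buffer of fast-spiking basket cells, belong to neurons from the medial ganglionic eminence. Calb2 (calretinin) marks interneurons that contact other interneurons and also excitatory mossy cells of the hilus. Reln, a secreted glycoprotein, is made by Cajal-Retzius cells as well as by interneurons, and Nos1, the neuronal nitric oxide synthase, and Lamp5, a lysosome-associated membrane protein, mark neurogliaform and ivy cells. In bulk tissue fewer cells of a type and less RNA per cell cannot be told apart.

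Of the 9 members, Slc32a1, Reln and Gad1 carried the differences described below, and their promoters are shown for that reason. Each is the 250 bases upstream of the RefSeq start in GRCm38.p6, and 8 members had such an entry, all but Calb2. Capitals mark matches, on either strand, to a GC box (GGGCGG), an E-box (CANNTG) or a TATA box (TATAAA). The Slc32a1 promoter is chr2:158610508-158610757 on the plus strand, that of Reln chr5:22344706-22344955 on the minus strand, and that of Gad1 chr2:70561879-70562128 on the plus strand.
Slc32a1: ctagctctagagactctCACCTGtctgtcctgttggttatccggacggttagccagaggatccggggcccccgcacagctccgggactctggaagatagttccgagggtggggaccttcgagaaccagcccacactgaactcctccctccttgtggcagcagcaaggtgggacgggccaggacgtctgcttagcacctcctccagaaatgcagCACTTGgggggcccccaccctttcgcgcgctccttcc
Reln: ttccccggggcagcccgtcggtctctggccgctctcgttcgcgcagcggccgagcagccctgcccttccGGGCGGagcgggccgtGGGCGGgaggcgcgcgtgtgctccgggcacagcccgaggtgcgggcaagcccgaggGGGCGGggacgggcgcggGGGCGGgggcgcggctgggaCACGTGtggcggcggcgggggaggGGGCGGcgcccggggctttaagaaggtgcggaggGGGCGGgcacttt
Gad1: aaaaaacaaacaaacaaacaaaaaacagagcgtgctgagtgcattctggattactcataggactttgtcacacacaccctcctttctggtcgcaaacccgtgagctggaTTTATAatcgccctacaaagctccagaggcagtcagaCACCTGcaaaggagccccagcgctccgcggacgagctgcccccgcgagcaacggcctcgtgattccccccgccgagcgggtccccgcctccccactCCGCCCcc

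The Reln promoter was 80.0% GC and held 6 GC boxes, where 32.7% of 32851 promoters held at least 1. That of Slc32a1 held none and had 2 E-boxes, a motif in 66.2% of promoters. The Gad1 promoter had a TATA box, as 12.4% of promoters did, with 1 E-box and 1 GC box. None of the 8 members held the palindromic estrogen response element, which occurs in 0.0639% of promoters. A single arm of it, GGTCA, in 35.2% of promoters, lay in those of Gad2, Lhx6, Nos1 and Lamp5 and in none of the 3 printed. The single progesterone receptor motif TGTTCT, in 16.1% of promoters, lay in those of Lhx6 and Lamp5. A match of letters is a description of the window and not a binding site.

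Levels per kilobase (kb) used the joined exons of all annotated transcripts of a gene. By this measure Pvalb had the highest level of the 9 members, with a median of 60.4 CPM per kb over the 55 libraries (43.7 to 97.0). Gad1 followed at 46.1 CPM per kb (29.2 to 62.2), then Calb2 at 22.7 (7.27 to 60.3), Gad2 at 19.4 (15.8 to 34.3) and Lamp5 at 13.8 (9.65 to 18.9). Nos1 lay at 5.04 CPM per kb (3.66 to 6.37), Lhx6 at 4.33 (3.37 to 5.69), Slc32a1 at 1.67 (0.769 to 3.32) and Reln at 0.527 (0.146 to 0.774). Neighbors in this order overlapped in range except Lamp5 against Nos1 and Lhx6 against Slc32a1. Slc32a1 and Reln were therefore the 2 lowest members, with 103 to 356 and 178 to 926 counts per library. The joined exons were 7639 bases for Gad1 and 1041 for Pvalb, while their longest transcripts were 3601 and 977 bases. The order of these 2 genes therefore depends on the length used, as does that of Gad2 and Lamp5 and that of Nos1 and Lhx6. Joined exons and longest transcripts were 5876 and 5744 bases for Gad2 and 2933 and 1955 for Lamp5. They were 11151 and 10123 bases for Nos1 and 4805 and 3481 for Lhx6.

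Calb2 varied most from library to library. It ranged from 12.7 to 105 CPM, where the highest library of Reln was 5.32 times its lowest and that of Slc32a1 4.32 times. That ratio was smallest for Lhx6 and Nos1, at 1.69 and 1.74 times, while Gad2 had the smallest SD over libraries (0.17 on the log2 scale). The group of the mouse held 38.9% of the variance of Slc32a1, 34.6% of that of Reln and 17.4% of that of Lhx6 on the log2 scale. With 10 groups over 55 libraries part of such a share arises by chance, and that part was not subtracted.

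**Figure D1:**
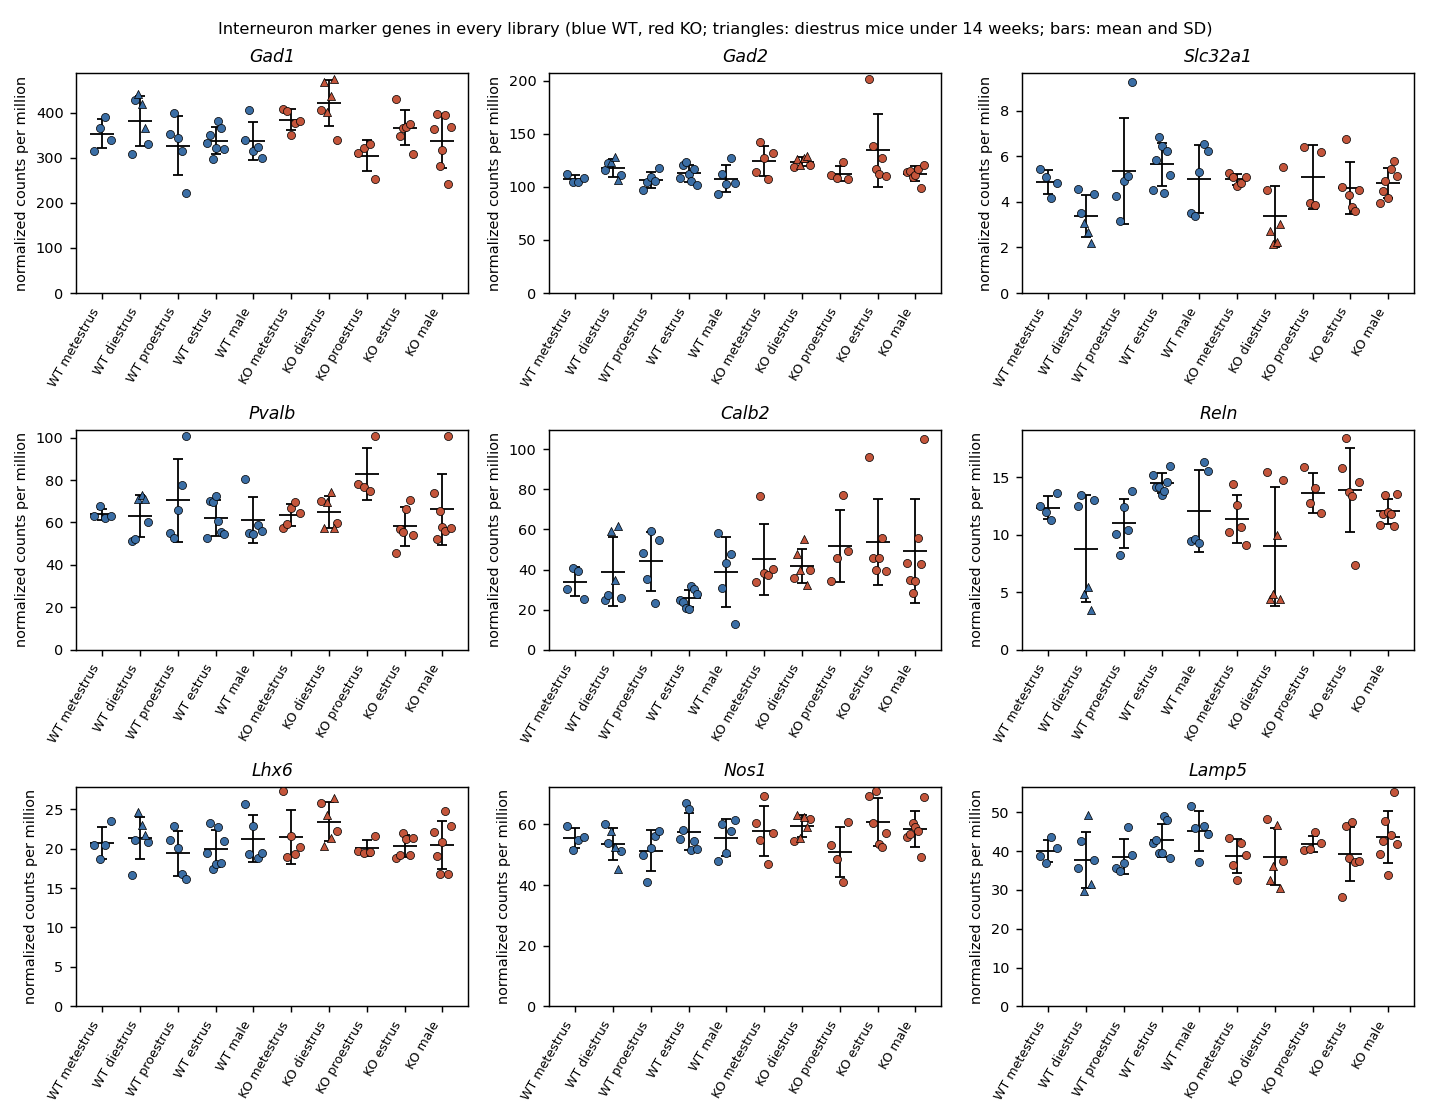
Normalized CPM (y axis, from 0) of the 9 interneuron marker genes in each of the 55 libraries, by genotype and stage, with group means and SD as bars and diestrus mice under 14 weeks as triangles. The triangles lie at the bottom of the Slc32a1 panel, at 2.15 to 3.06 CPM, and near the bottom of the Reln panel, at 3.46 to 10.0 CPM.

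Whether interneuron genes moved with the estrous cycle was asked first in WT. Slc32a1 and Reln were lower in diestrus than in estrus and metestrus, and the other 7 members did not pass the test between any pair of WT stages, where 30.6% of all genes passed between at least 1 pair. A gene is called here at a false discovery rate (FDR, the Benjamini-Hochberg adjusted p of the limma model) under 0.05 over all 16168 genes. By this rule 2 members changed over the WT cycle (F-test FDR 0.0046 for Reln and 0.0102 for Slc32a1), where 23.1% of all genes did. The members' share was thus close to that of all genes.

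Reln had 3.46 CPM at the lowest, 8.98 at the median and 13.4 at the highest in WT diestrus, against 13.4, 14.2 and 16.0 CPM in WT estrus. The groups did not overlap, although the highest diestrus library lay just below the lowest estrus library. On the log2 scale Reln fell by 1.11 ± 0.23 (SE, FDR 0.00099) from estrus to diestrus. In WT metestrus the 4 libraries had 11.3, 12.0, 12.5 and 13.7 CPM, and metestrus exceeded diestrus by 0.86 ± 0.25 (SE, FDR 0.0290).

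Slc32a1 had 2.21 CPM at the lowest, 3.30 at the median and 4.56 at the highest in WT diestrus, against 4.41, 5.85 and 6.85 CPM in WT estrus. Only the highest diestrus library reached into the estrus range. The log2 difference between diestrus and estrus was -0.83 ± 0.19 (SE, FDR 0.0020). Metestrus, at 4.19, 4.82, 5.11 and 5.44 CPM, exceeded diestrus by 0.65 ± 0.21 (SE, FDR 0.0440). The share of all genes called was 22.1% for diestrus against estrus and 7.24% for metestrus against diestrus, and 2 of 9 members were called in each. All 4 calls ended when WT diestrus replicate 3, 4 or 5 was left out, with Reln then at -0.43, -0.42 or -0.40 and Slc32a1 at -0.54, -0.51 or -0.51 against estrus. Against metestrus the values were then 0.19, 0.18 or 0.16 for Reln and 0.36, 0.33 or 0.33 for Slc32a1. All 4 also ended with RNA integrity as a covariate, at -0.68 for Reln and -0.56 for Slc32a1 against estrus (FDR 0.31 for both) and 0.50 and 0.42 against metestrus (FDR 0.56 for both).

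In KO mice 4 members changed over the cycle, where 33.3% of all genes did: Reln (F-test FDR 0.00017), Slc32a1 (FDR 0.00075), Gad1 (FDR 0.00084) and Pvalb (FDR 0.0158). The most members, 5 of 9, were called between diestrus and proestrus, where 34.3% of all genes were. Gad1 and Nos1 were higher in diestrus, as were 14.9% of all genes, and Reln, Slc32a1 and Pvalb were lower, as were 19.4%. These 5 were also the members called between any pair of KO stages, where 46.2% of all genes were. The median log2 fold change of the 9 members there was -0.12, beside -0.03 over all genes.

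Gad1 in KO diestrus had 339 CPM at the lowest, 422 at the median and 475 at the highest, against 254, 312, 322 and 331 CPM in the 4 KO proestrus libraries. The groups did not overlap. The log2 fold change was 0.48 ± 0.09 (SE, FDR 5.8e-05). Gad1 in KO diestrus also exceeded KO estrus by 0.29 ± 0.08 (SE, FDR 0.0089) and KO males by 0.30 ± 0.08 (SE, FDR 0.0033), at 309 to 430 and 242 to 398 CPM, and both ranges overlapped that of diestrus. The call against estrus ended without KO estrus replicate 6 (0.24, FDR 0.0550). Its partner Gad2 had 119 to 129 CPM in KO diestrus and 107 to 123 CPM in KO proestrus and was not called between any stages.

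Reln in KO diestrus had 4.41 CPM at the lowest, 7.41 at the median and 15.5 at the highest, and the 4 KO proestrus libraries had 11.9, 12.8, 14.0 and 15.9 CPM. Of the diestrus libraries 4 lay below all proestrus libraries and 2 lay within their range. The log2 difference from proestrus was -1.15 ± 0.22 (SE, FDR 8.6e-05). Against KO estrus (7.35 to 18.4 CPM) it was -1.11 ± 0.21 (SE, FDR 0.00014), and KO metestrus (9.07 to 14.4 CPM) exceeded diestrus by 0.81 ± 0.22 (SE, FDR 0.0117).

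Slc32a1 in KO diestrus had 2.15 CPM at the lowest, 2.87 at the median and 5.52 at the highest, and the 4 KO proestrus libraries had 3.86, 3.93, 6.21 and 6.42 CPM. Again 4 diestrus libraries lay below all proestrus libraries. The log2 difference was -0.81 ± 0.19 (SE, FDR 0.00079) from proestrus and -0.72 ± 0.18 (SE, FDR 0.0025) from estrus. KO metestrus, at 4.68 to 5.27 CPM, exceeded diestrus by 0.86 ± 0.18 (SE, FDR 0.0017). Of all genes 30.7% were called between KO diestrus and estrus, beside 3 of 9 members, and 10.4% between KO metestrus and diestrus, beside 2 of 9. The metestrus call of Reln ended without KO diestrus replicate 2 (0.53), 3 (0.67) or 5 (0.56).

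Pvalb and Nos1 were called in 1 comparison each. Pvalb had 57.4 to 74.5 CPM in KO diestrus (median 64.7) and 75.0, 76.5, 78.4 and 101 CPM in KO proestrus, without overlap, and fell by 0.30 ± 0.11 (SE, FDR 0.0276) on the log2 scale from proestrus to diestrus. Nos1 had 54.4 to 63.1 CPM in KO diestrus (median 60.6) and 41.2, 48.6, 53.0 and 60.9 CPM in KO proestrus, with overlap, and differed by 0.27 ± 0.09 (SE, FDR 0.0225). Both calls rested on single libraries. That of Pvalb ended without KO diestrus replicate 2 (-0.23) or 5 (-0.23) or KO proestrus replicate 1 (-0.32), 2 (-0.34) or 4 (-0.26), and that of Nos1 without KO diestrus replicate 2 (0.25) or KO proestrus replicate 2 (0.27) or 3 (0.21).

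**Figure D2:**
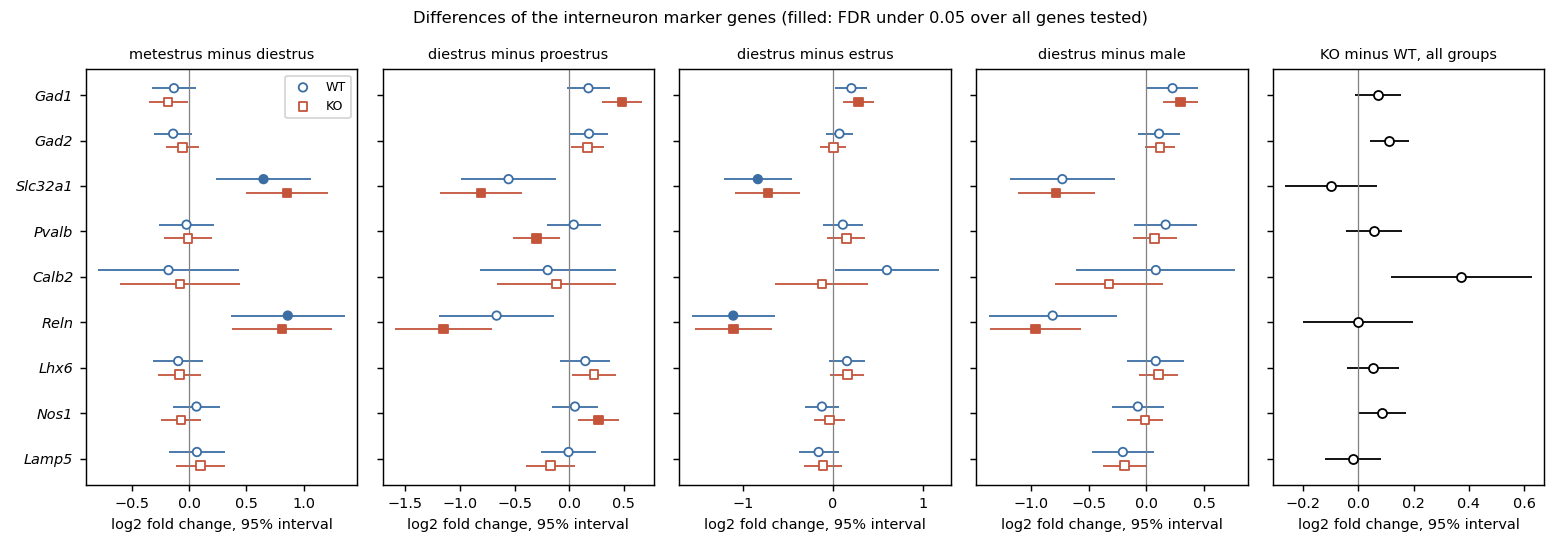
Log2 fold changes (x axis) with 95% intervals of the 9 members for 4 comparisons with diestrus, within WT (blue circles) and KO (red squares), and for KO minus WT over all groups (black circles, right). Filled symbols have an FDR under 0.05. Slc32a1 and Reln lie away from 0 in both genotypes, and no symbol is filled in the right panel.

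Male mice gave another reference for the diestrus values. KO males were 18.29 to 23.71 weeks old, and KO diestrus females 10.86 to 23.43 weeks (median 12.43). In KO, diestrus females had less Reln (-0.96 ± 0.20, SE, FDR 0.00027) and Slc32a1 (-0.78 ± 0.17, SE, FDR 0.00039) than males and more Gad1, as above. KO males had 10.8 CPM of Reln at the lowest, 11.8 at the median and 13.5 at the highest, and 3.96, 4.90 and 5.79 CPM of Slc32a1. Of all genes 28.7% were called in this comparison, and 33.7% in any KO stage against males, where the same 3 members were. With age in weeks as a covariate Gad1 lost its call against KO males (0.25, FDR 0.0930), while Reln and Slc32a1 kept theirs. The number of all genes called in KO diestrus against males then fell from 4635 to 1025. The same covariate ended the metestrus against diestrus calls of Reln and Slc32a1, with the direction kept. Slc32a1 was then at 0.56 (FDR 0.13) in WT and 0.75 (FDR 0.0599) in KO. Reln was at 0.72 (FDR 0.12) in WT and 0.65 (FDR 0.17) in KO. All genes called there fell from 1170 to 64 in WT and from 1689 to 74 in KO. Pvalb also lost its call in KO diestrus against proestrus (-0.29, FDR 0.0509). In WT none of the 9 members was called in any stage against males by limma, edgeR or DESeq2, where 0.0866% of all genes were called by limma, and 3 members had an unadjusted p under 0.05, as 27.6% of all genes did. These were Reln, Slc32a1 and Gad1, all in diestrus, at -0.81, -0.73 and 0.23.

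No member was called between KO and WT by limma, edgeR or DESeq2, in any stage, in males or over all groups, where 3.64% of all genes were called by limma in at least 1 of these comparisons. At an unadjusted p under 0.05 there were 4 members, and 40.2% of all genes. Over all groups Gad2 was higher in KO by 0.11 (95% interval 0.04 to 0.18, FDR 0.0551) and Calb2 by 0.37 (0.12 to 0.63, FDR 0.0914). The interval for Reln was -0.20 to 0.20 and that for Slc32a1 -0.26 to 0.07. No stage or sex difference of a member differed between the genotypes by these tools either, over 11 interactions in which 0 of the 16168 genes (0%) were called by limma, and 3 members had an unadjusted p under 0.05 in at least 1, as did 36.5% of all genes. For diestrus minus proestrus the KO difference exceeded the WT difference by 0.31 ± 0.13 (SE, FDR 0.34) for Gad1, and the same quantity was -0.34 for Pvalb (FDR 0.38). The cycle calls in KO alone (Gad1, Pvalb and Nos1) are therefore not shown to be particular to KO.

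The diestrus mice were not of one age. Of the 12, 7 were under 14 weeks (3 WT and 4 KO, 10.86 to 13.86 weeks) and 5 were of 14 weeks or more, a boundary set with earlier results of these data known. The labels number these 7 mice, and no others, with a plain number of 3 digits. Age and any batch behind that numbering therefore cannot be told apart. The WT estrus mice (16.29 to 20.29 weeks) and the KO males (18.29 to 23.71 weeks) held none under 14 weeks. Slc32a1 had 2.15 to 3.06 CPM (median 2.70) in the 7 young diestrus mice, below all of the other 48, whose lowest value was 3.17 CPM. It had 3.53 to 5.52 CPM in the 5 older diestrus mice, within the range of the other stages and males. The 10 other mice under 14 weeks had 3.17 to 6.42 CPM, with the lowest next to the highest young diestrus mouse, and the youngest of these was 12 weeks old, so no mouse of another stage matched the youngest diestrus mice in age.

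Reln showed the same split. It had 3.46 to 10.0 CPM (median 4.80) in the young diestrus mice and 12.5 to 15.5 CPM in the older diestrus mice, without overlap. The 10 other mice under 14 weeks had 8.28 to 15.9 CPM, a range that only KO diestrus replicate 4, at 10.0 CPM, entered. Gad1 had 366 to 475 CPM in the young and 310 to 427 CPM in the older diestrus mice, with overlap. Lhx6, with 20.4 to 26.4 CPM in the young and 16.7 to 25.9 CPM in the older diestrus mice, and Pvalb, with 57.4 to 74.5 and 51.4 to 70.2 CPM, overlapped as well.

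**Figure D3:**
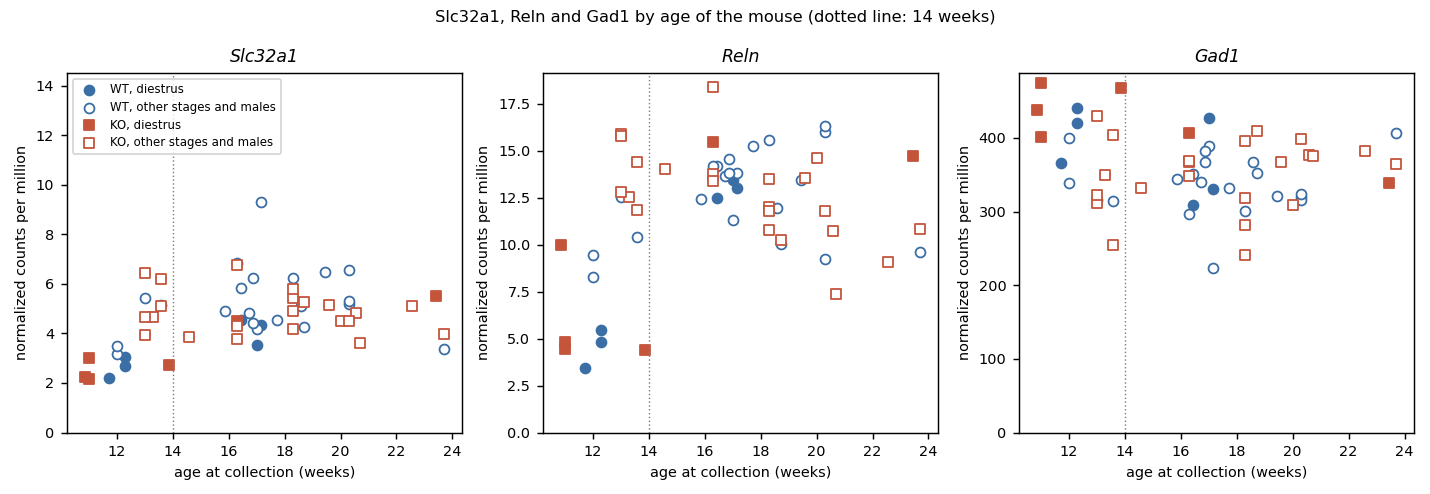
Normalized CPM (y axes, from 0) of Slc32a1, Reln and Gad1 against age at collection in weeks (x axis), 1 point per mouse, filled for diestrus, with a dotted line at 14 weeks. Filled points left of the line lie at 2.15 to 3.06 CPM for Slc32a1, under every other point, and filled points right of it lie among the other mice.

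With the 7 young diestrus mice left out, 3 WT and 2 KO diestrus mice remained. None of the 23 called values above then kept its call. Of these, 6 were F-tests over the cycle, which have no direction. Of the 17 differences 9 kept their direction and 8 changed sign. With so few diestrus mice a lost call does not by itself show a lost difference. Against KO proestrus the difference of Slc32a1 went from -0.81 to 0.03, that of Reln from -1.15 to 0.11 and that of Gad1 from 0.48 to 0.23 (FDR 0.82 or more for each). Against WT estrus Slc32a1 kept -0.46 and Reln -0.16 (FDR 0.75 and 0.82). With the 5 older diestrus mice left out instead, all 23 calls were kept, at -1.64 (FDR 7.2e-09) for Reln and -1.05 (FDR 1.6e-05) for Slc32a1 in WT diestrus against estrus. The total of called genes fell in the same way without the young mice, from 3576 to 0 in WT diestrus against estrus and from 5550 to 0 in KO diestrus against proestrus.

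Among KO females under 14 weeks only, estrus had 1 mouse. The 4 diestrus mice, of 10.86, 11, 11 and 13.86 weeks and all with a plain 3-digit number, were set against 3 proestrus mice. The proestrus mice were of 13, 13 and 13.57 weeks, so ages were not matched in this comparison. There Slc32a1 differed by -0.92 (FDR 0.00026), Reln by -1.38 (FDR 3.4e-06) and Gad1 by 0.57 (FDR 3.8e-05). Age in weeks as a straight line, added to the 10 group means, was related to none of the 9 members by limma, edgeR or DESeq2, with 0 members at an unadjusted p under 0.05, where 0.0804% of all genes were called by limma and 8.2% had an unadjusted p under 0.05.

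**Figure D4:**
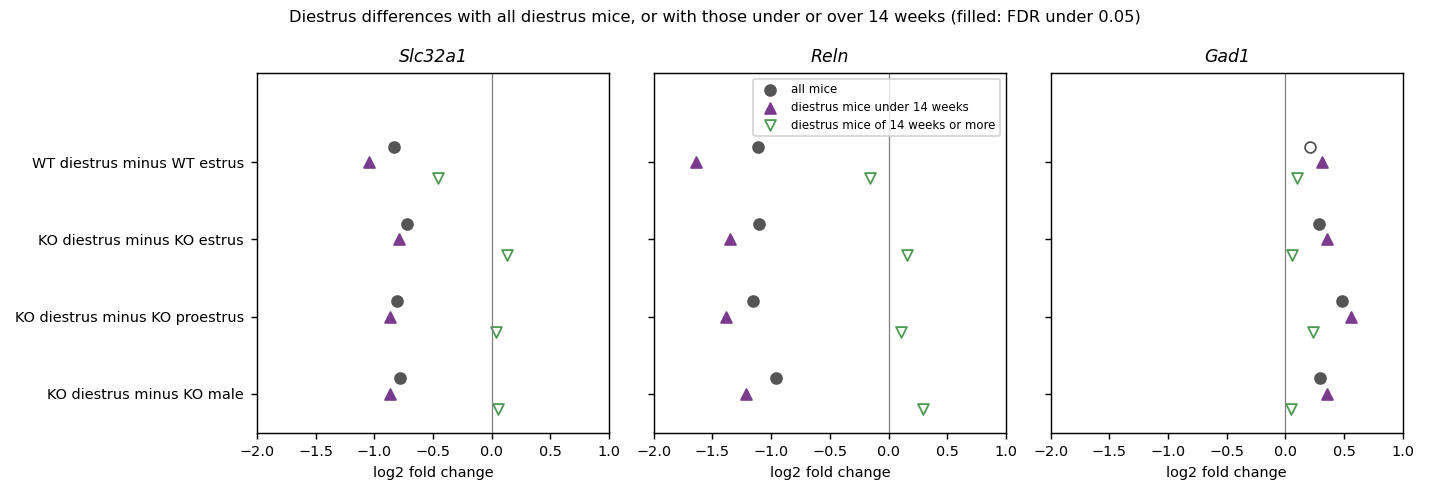
Log2 fold changes (x axis) of Slc32a1, Reln and Gad1 for 4 comparisons of diestrus (rows), with all diestrus mice (grey circles), with the 7 under 14 weeks only (purple triangles pointing up) or with the 5 of 14 weeks or more only (green triangles pointing down). Filled symbols have an FDR under 0.05. Every green symbol is open, and the KO values of Slc32a1 and Reln then lie at 0.03 to 0.29, with 2 KO diestrus mice.

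The weighting of libraries also decided most calls. The main fit gives each library a quality weight, which was 1.61 to 1.74 for the 4 young KO diestrus mice, 0.763 to 1.14 for the 3 young WT diestrus mice and 0.327 to 0.935 for the 5 older diestrus mice. With all libraries weighted equally 3 of the 23 calls were kept. The quasi-likelihood test of edgeR kept 1, Gad1 in KO diestrus against proestrus, and DESeq2 kept 3. The 17 differences kept their direction in each. Calls over all 16168 genes fell in these settings too. In WT diestrus against estrus they fell from 3576 in the main fit to 501 with equal weights, 2 by edgeR and 111 by DESeq2. In KO diestrus against proestrus the totals in the same order were 5550, 1627, 1353 and 1799.

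The other genes of the GABA pathway and of interneuron subtypes were taken from lists of known genes, which hold the members too. Of 8 genes for GABA synthesis, transport and breakdown, 2 were higher and 2 lower in KO diestrus than in KO proestrus, with a median log2 fold change of -0.04 beside -0.03 over all genes. Slc32a1 was among the lower genes, and Abat, the transaminase that breaks GABA down, was higher by 0.55 ± 0.09 (SE, FDR 1.5e-05) along with Gad1. In WT diestrus against estrus 2 were lower, Slc32a1 among them, and none was higher. The summed level of the 8 genes was 722 to 924 CPM in the young diestrus mice and 607 to 927 CPM in the other 48.

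Among 11 tested genes of medial ganglionic eminence type interneurons, 8 were lower and 1, Nos1, was higher in KO diestrus than in KO proestrus, where 19.4% of all genes were lower and 14.9% higher, and their median was -0.47 beside -0.03 over all genes. The 3 with the smallest FDR were Kcnc1, a fast potassium channel subunit (-0.49 ± 0.10, SE, FDR 0.00016), Elfn1, a postsynaptic protein of somatostatin cells (-0.73 ± 0.18, SE, FDR 0.0012), and Tac1, the substance P precursor (-0.60 ± 0.16, SE, FDR 0.0037). In WT diestrus against estrus 5 of the 11 were lower and none was higher, where 22.1% of all genes were called in either direction. The median of the 11 was -0.39, beside -0.01 over all genes. The lower genes were led by Kcnc1 at -0.39, Kcnc2 at -0.39 and the neuregulin receptor Erbb4 at -0.54. Other comparisons with diestrus called fewer of the 11. In KO diestrus Erbb4, Kcnc1 and Elfn1 were lower than in KO estrus (30.7% of all genes called). Kcnc1 and Erbb4 were lower and Cox6a2 was higher than in KO males (28.7%). Elfn1 alone was lower in WT diestrus than in WT proestrus, where 1562 of the 16168 genes were called. Crhbp was lower in diestrus than in metestrus in both genotypes, as was Elfn1 in WT.

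Of 15 interneuron transcription factors 2 were lower in KO diestrus than in KO proestrus, among them Npas1 at -0.77 ± 0.20 (SE, FDR 0.0026), with a median of -0.07, and Lhx6 was not among them. In WT diestrus against estrus 2 were lower, among them Prox1, which granule cells also use, at -0.44 ± 0.10 (SE, FDR 0.0025). Of 14 genes of caudal ganglionic eminence and neurogliaform type, Adarb2 was higher (0.27 ± 0.10, SE, FDR 0.0258) and Reln lower in KO, and Reln and the cannabinoid receptor gene Cnr1 (-0.37 ± 0.12, SE, FDR 0.0275) were lower in WT. With the young diestrus mice left out, no gene of the 4 lists was called in any comparison with diestrus. Of all 16080 genes then tested, 0 were called between diestrus and another stage of the same genotype. Against males 6 were called in WT diestrus and 7 in KO diestrus.

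Between KO and WT over all groups 4 listed genes were called, though no member was. Ndnf, a neurogliaform and Cajal-Retzius gene, was higher in KO by 0.41 ± 0.08 (SE, FDR 0.00034). Lower in KO were Cox6a2, a cytochrome oxidase subunit, by -0.56 ± 0.09 (SE, FDR 4.8e-05), Crhbp, which encodes a binding protein for corticotropin-releasing hormone, by -0.28 ± 0.06 (SE, FDR 0.0031), and the neuropeptide gene Npy by -0.33 ± 0.08 (SE, FDR 0.0086). Of all genes 3.40% were called.

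Markers of other cells moved with the young diestrus mice as well. The summed level of 10 genes of mature oligodendrocytes was 3092 to 3952 CPM in these 7 against 3369 to 7007 CPM in the other 48, and 8 of the 10 were lower in KO diestrus than in KO proestrus. That of 6 microglial genes was 116 to 157 against 138 to 233 CPM, that of 8 dentate granule cell genes 279 to 337 against 296 to 480 CPM, and that of 6 astrocyte genes 1482 to 1810 against 1138 to 3090 CPM. All these ranges overlapped, with the young diestrus mice low for the first 3 lists. Their part in the member differences was not tested.

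The other lists overlapped between the young diestrus mice and the rest as well, and that of neocortex and subiculum reached its highest sum in the young diestrus mice. The 8 genes of CA1 and CA3 pyramidal cells summed to 1214 to 1353 CPM in the young diestrus mice and 1149 to 1415 CPM in the others, with 3 genes higher and 4 lower in KO diestrus against proestrus. Thalamus genes summed to 104 to 128 against 81.2 to 149 CPM, striatum and septum genes to 76.0 to 99.7 against 66.8 to 163 CPM, and neocortex and subiculum genes to 168 to 248 against 120 to 208 CPM, with 1 gene higher and 1 lower. Mossy cell genes, Calb2 among them, summed to 68.4 to 94.7 against 58.3 to 154 CPM, and Cajal-Retzius genes to 16.4 to 25.2 against 17.3 to 36.1 CPM. Choroid plexus genes (208 to 1317 against 113 to 2831 CPM) and pituitary genes (64.3 to 252 against 84.6 to 387 CPM) overlapped too.

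Base composition moved with the Slc32a1 result in KO. Its exons are 61.9% GC, at the 98.4th percentile of the genes tested, and the 1616 genes nearest in GC rank (the same decile) had a median log2 fold change of -0.28 in KO diestrus against proestrus, but -0.02 in WT diestrus against estrus. With GC content and length removed the KO difference of Slc32a1 was -0.43 (FDR 0.0515) and the WT difference -0.83 (FDR 0.0016). Reln has 23738 bases of exon, at the 99.7th percentile, and its length decile had medians of -0.07 in that KO comparison and -0.20 in that WT comparison. With the same correction Reln kept both calls (FDR 4.9e-05 in KO, and -0.83 with FDR 0.0029 in WT).

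In the deposited transcript table the single annotated transcript of Slc32a1 had 2.37 to 4.19 CPM in the young diestrus mice (median 2.70) and 3.65 to 9.30 CPM (median 5.93) in the other 48. Transcript Reln-207 had 3.73 to 10.1 CPM (median 4.69) against 6.66 to 20.3 CPM (median 12.7). The lower values were thus seen in both tables, which come from the same reads. Gad2-201 held 99.8% of the Gad2 reads at the median and Calb2-201 99.5% of those of Calb2, while Lamp5 was split between Lamp5-201 (51.5%) and Lamp5-202 (47.6%). On the opposite strand Slc32a1 overlaps Gm14205, Gad1 overlaps Gad1os and Reln overlaps Gm10475 and Gm16110. Reads of such partners cannot be told apart where counting did not use strand. The study counted unambiguous reads per gene, so reads over such an overlap may also be missing from the gene counts. This was not tested.

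The relation of the 6 subtype genes to the mean log2 CPM of Gad1, Gad2 and Slc32a1 was computed over all 55 libraries, with group means removed. Of 6 relations 2 passed a two-sided permutation test after adjustment. Reln had a Pearson r of 0.50 (adjusted permutation p = 0.0026) and a Spearman rho of 0.47 (adjusted permutation p = 0.0045), and r was 0.45 with the 2 most distant libraries (by the mean) removed and 0.52 in the 48 mice outside the young diestrus set. Nos1 had an r of 0.48 (adjusted permutation p = 0.0026) and a rho of 0.48 (adjusted permutation p = 0.0045), with 0.41 and 0.48 in the same subsets. The r of the others was -0.23 for Pvalb, -0.18 for Lhx6, -0.07 for Lamp5 and 0.07 for Calb2 (adjusted permutation p of 0.25 or more).

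The 3 genes of that mean did not move together, so it is no measure of GABAergic content as a whole. Of 21 relations computed for the single genes, Gad1 against Slc32a1 was negative, with an r of -0.59 (adjusted permutation p = 0.00073) and a rho of -0.50 (adjusted permutation p = 0.0068), and -0.52 with the 2 most distant libraries removed. Reln was related to Slc32a1 (r = 0.64, adjusted permutation p = 0.00073, rho = 0.56, adjusted permutation p = 0.0059, and 0.60 without those 2), but its r was 0.15 with Gad2 and -0.32 with Gad1 (adjusted permutation p = 0.32 and 0.066). Nos1 was related to Slc32a1 (r = 0.42, adjusted permutation p = 0.019, rho = 0.42, adjusted permutation p = 0.023) and to Gad2 (r = 0.41, adjusted permutation p = 0.026, rho = 0.44, adjusted permutation p = 0.023), with 0.40 and 0.38 without the 2 most distant libraries, and its r with Gad1 was -0.17 (adjusted permutation p = 0.32).

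The genes outside the members whose pattern over the 55 libraries was most like that of the mean of Gad1, Gad2 and Slc32a1 were Nrxn3 (r = 0.68), Ntrk2 (0.68), Kcna4 (0.66), Sema3e (0.65) and Tfrc (0.64). For single members the closest gene was Fto for Gad1 (r = 0.93), Sv2a for Reln (0.93), Mgst3 for Pvalb (0.85), Rnf150 for Slc32a1 (0.82) and Ctxn3 for Calb2 (0.80). Synj1 was closest to Nos1 (0.78), E2f3 to Gad2 (0.70), Chst12 to Lamp5 (0.68) and Prelid3a to Lhx6 (0.63). Second for Slc32a1 was Slc17a7 (0.81), which is in the list of CA1 and CA3 pyramidal cells. Second genes of the other members are not reported here. These are descriptions over libraries that share tissue and depth, with group means removed. The split between young and older diestrus mice stays in these values.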

How the data were processed

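Dorsal hippocampal RNA of 55 mice was sequenced. The authors aligned reads to GRCm38 with STAR 2.7.9a and deposited whole-number counts per gene from featureCounts 2.0.3. They also deposited expected counts per transcript, for which their notes name Salmon 1.5.2, and log2 CPM of the filtered genes. The strand setting is not given in the sources used here, and 1 column of the tables matched no sample and was not used. From the counts, genes were kept where 10 or more libraries exceeded 1 CPM, 5 ribosomal genes were left out, and libraries were scaled by TMM. A limma 3.58.1 model (voomWithQualityWeights, R 4.3.3) of the 10 group means was fitted to 16168 genes, with Benjamini-Hochberg adjustment within each comparison. Normalized CPM are counts over TMM-scaled library sizes, per 1000000 reads. The log2 CPM of the fit equal the authors' deposited log2 table to rounding. The fit was tested on simulated data. Alternatives used edgeR 4.0.16 and DESeq2 1.42.0. Transcript CPM were computed from the expected counts. For 5 members the transcript table as used here leaves out 1 annotated transcript, so shares are given for the others only. Total counts, 25881295 to 63547098 per library, set the counting precision, which was lowest for Slc32a1 (103 to 356 counts).

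All 9 members were named. Of each list, at most 3 called genes in each direction were named, by the smallest FDR, and some called genes are not reported here. The members, the lists and the boundary of 14 weeks were chosen with earlier results of these data known.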

Additional observations from a re-analysis of the deposited data

Results flagged for a closer look

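In 5 of 90 sets of 1 gene in 1 group, 1 library lay far from the others on the log2 scale, and chance gives about 1 in 20. Pvalb had 80.3 CPM in WT male replicate 1, where the other WT males had 54.6 to 58.7 CPM. KO proestrus replicate 4 was high for Pvalb, at 101 CPM against 75.0 to 78.4 CPM, and for Lhx6, at 21.6 CPM against 19.4 to 19.7 CPM. Without it the Pvalb difference between KO diestrus and proestrus was -0.26 (FDR 0.0616). Calb2 had 76.5 CPM in KO metestrus replicate 2, where the others had 33.7 to 40.1 CPM. Reln had 7.35 CPM in KO estrus replicate 5, where the others had 13.4 to 18.4 CPM.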

How the results depend on the processing

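No paired analysis was possible because the replicate numbers were given in accession order and pair no mice. Some mouse numbers share a first part, whose meaning the labels do not give, and a block on it was not run. Of the 23 member calls, 23 were kept with DESeq2 size factors and in libraries of RNA integrity 8 or more. In mice whose parent label names Cnih3, KO mice among them, 20 were kept. With RNA integrity as a covariate 18 were kept, with age as a covariate 17 and without the filter on low counts 17. Counts of members are given in the order WT cycle, KO cycle, any WT pair, any KO pair and KO against males. The main counts were 2, 4, 2, 5 and 3, where 23.1%, 33.3%, 30.6%, 46.2% and 33.7% of all genes were called. By edgeR the member counts were 0, 0, 0, 1 and 0, where 0.0247%, 0.334%, 0.111%, 8.41% and 5.65% of all genes were called. By DESeq2 they were 0, 0, 1, 1 and 1, where 0.532%, 3.54%, 1.19%, 11.7% and 8.94% of all genes were. Without quality weights the WT cycle, KO cycle, KO pair and KO male counts were 0, 0, 1 and 0. The shares of all genes were then 0%, 1.34%, 10.7% and 7%. Without the filter on low counts the KO pair count was 3 (11% of all genes). With RNA integrity as a covariate the WT cycle count was 1 (12.9% of all genes) and all 4 WT calls of Reln and Slc32a1 between stages were lost, while other pairs of WT stages brought the pair count to 5 (23.7%). Gad1 and Pvalb were then the 2 members called between KO and WT (16.4%) and the 2 called for an interaction (19.3%), where the main counts were 0. In libraries of RNA integrity 8 or more, 2 members (Gad2 and Pvalb) were called between KO and WT (7.69% of all genes) and 1 (Pvalb) for an interaction (6.94%). In mice whose parent label names Cnih3, 4 members were called over the WT cycle (27.8% of all genes) and 4 between WT pairs (28.1%). In the same mice 4 were called against WT males (51.7%) and 2 between KO and WT (18.3%), and 3 WT calls were lost. With diestrus mice under 14 weeks only, the counts were 4 over the WT cycle (48.2% of all genes), 6 between WT pairs (59.1%) and 3 against WT males (26.4%). With diestrus mice of 14 weeks or more only, the 5 counts were 0, 0, 1, 0 and 0. The shares of all genes were then 0.883%, 0.0249%, 7.02%, 3.28% and 8.91%. The cause of these changes was not tested.

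Reversed values with diestrus mice of 14 weeks or more only were -0.084 (WT) and -0.45 (KO) for Reln in metestrus minus diestrus. In KO diestrus against proestrus, estrus and males they were 0.033, 0.13 and 0.053 for Slc32a1 and 0.11, 0.16 and 0.29 for Reln.

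Chosen after seeing the data were 3 further alternatives and the relations with single genes. These age subsets leave 1 KO proestrus mouse of 14 weeks or more and 1 KO estrus mouse under 14 weeks, each assumed to vary like the other groups. With females of 14 weeks or more only, the 5 counts were 1 (Calb2), 0, 1 (Calb2), 0 and 0, and the reversed values in the same order were -0.10 and -0.56, then 0.33, 0.12 and 0.053 for Slc32a1 and 0.078, 0.16 and 0.29 for Reln. With KO females under 14 weeks only, 15 of 17 calls were kept and 5 members were called against KO males (43.4% of all genes). With GC content and length removed, 21 of 23 calls were kept.

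Leaving out each of the 55 libraries in turn gave 0 to 4 members over the WT cycle, 4 to 5 over the KO cycle, 0 to 5 between WT pairs and 3 to 7 between KO pairs. It gave 0 to 3 against WT males, 3 to 4 against KO males and 0 to 4 between KO and WT. For interactions it gave 0 to 1 and for age 0. The share of all genes called was not computed for these fits. Slc32a1 in WT metestrus against diestrus also lost its call without WT metestrus replicate 1 (0.62) or 2 (0.62).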
